A study of Mus musculus with 4 samples.

Results

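Among the MafG peaks of mouse liver, 125 stood in close rows. They were selected on the positions of the deposited peaks alone: on chromosomes 1 to 19, neighbouring peaks whose midpoints lay 3 kb or less apart were joined into a chain, and all peaks of chains with 4 or more were kept. This gave 30 chains, and their 125 peaks made up 0.187% of the 66904 autosomal peaks (68763 peaks in the whole list). There were 27 chains of 4 peaks, 2 of 5 and 1 of 7. How close the peaks of a chain lie is therefore the choice itself and not a finding. The heights, the control signal, the genes and the promoter sequence at these places were not used to choose them, although a peak had to pass the authors' limits on height over control and over its surroundings to be listed.

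The study carried out chromatin immunoprecipitation with sequencing (ChIP-seq) on livers of C57BL6/J mice. In 2 libraries the treatment was labelled Ad BLRP MAFG and the liver overexpressed MafG with the BLRP tag, and in 2 control libraries it was labelled Ad BLRP Control. An Avi-tag antibody was used on all 4, so the peaks are calls on the signal of tagged MafG and not of native MafG. MafG was above its native level, and the chromatin came from all cell types of the liver. The authors deposited 1 list with no value per library, and no difference between animals could be tested.

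MafG belongs to the small MAF family, whose members bind DNA through a basic leucine zipper and carry no transactivation domain of their own. It acts as a pair, with itself or with partners such as NRF2 and BACH1, and recognises the MAF recognition element and the related antioxidant response element. In liver it is known for a part in bile acid synthesis and in the antioxidant response.

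The sequences below come from the RefSeq promoter windows of build GRCm38.p6, each with 250 bases before and 50 after a listed gene start. Of the chained peaks, 6 in 5 chains touched a window, and these peaks touched 7 windows. The whole Gm13285 window (chr4:88800070-88800369, plus strand) is shown because the identical 300 bases recur at Gm13287, at another peak of the longest chain, and at Gm13272, at a peak of the same array outside it. For the Fto and Rpgrip1l chain the part under its first peak is given (chr8:91313275-91313471, plus strand), and for Gbe1 (chr16:70313862-70313998, plus strand) and Atp1b3 (chr9:96363666-96363773, minus strand) the part of the window under the peak at the start site. Capitals mark matches to TGCTGA, one side of the palindromic MAF recognition element (reverse complement TCAGCA), or to TGANNNNGC, the core of the antioxidant response element (reverse complement GCNNNNTCA), where N is any base.
Gm13285: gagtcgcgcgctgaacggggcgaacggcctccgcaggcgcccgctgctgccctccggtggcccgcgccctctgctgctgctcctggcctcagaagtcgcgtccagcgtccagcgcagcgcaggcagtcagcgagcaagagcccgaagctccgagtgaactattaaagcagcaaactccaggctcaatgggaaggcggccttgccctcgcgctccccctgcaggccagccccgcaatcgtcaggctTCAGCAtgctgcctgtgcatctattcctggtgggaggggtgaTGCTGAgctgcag
Fto/Rpgrip1l: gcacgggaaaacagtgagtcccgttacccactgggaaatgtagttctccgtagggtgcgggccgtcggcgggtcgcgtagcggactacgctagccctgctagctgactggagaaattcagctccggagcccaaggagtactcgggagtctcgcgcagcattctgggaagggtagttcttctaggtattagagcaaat
Gbe1: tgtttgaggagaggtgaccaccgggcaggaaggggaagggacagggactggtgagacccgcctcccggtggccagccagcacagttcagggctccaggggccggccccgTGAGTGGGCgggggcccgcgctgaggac
Atp1b3: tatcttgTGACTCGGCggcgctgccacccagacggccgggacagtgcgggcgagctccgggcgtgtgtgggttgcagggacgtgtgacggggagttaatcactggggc

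The Gm13285 window held 2 matches to TGCTGA, both under the peak, and so did the Gm13287 window. The parts under the Gbe1 and Atp1b3 peaks held 1 match each to TGANNNNGC. The part shared by Fto and Rpgrip1l and the part at Aadat held none of the motifs searched. TGACTCA (reverse complement TGAGTCA), the site that MAF and AP-1 proteins share, was in none of the 7 windows under the peak. Of all 31396 windows on the 18 autosomes in the table, searched on both strands, 19.4% held TGCTGA, 2.34% held it at least 2 times, 5.26% held TGACTCA and 41.3% held TGANNNNGC. Matches of different motifs may overlap. These windows cover few of the chained peaks, so the letters under the other 119 peaks were not read.

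The longest chain ran along an array of related genes around Ifnz, the gene of interferon zeta, a type I interferon. At chr4:88785596-88803333 it held 7 peaks over 17737 bp and overlapped 7 predicted genes, Gm13275, Gm13276, Gm13277, Gm13278, Gm13279, Gm13285 and Gm13287. In order along the chromosome, the normalized tag counts (BLRP-MafG tags scaled to a total of 10000000) were 23.5, 24, 27, 31.9, 23.5, 27 and 24.5. The control held 3, 2, 4, 3, 0, 3 and 4 tags at the same peaks. The peaks were thus close to one height, the tallest 1.36 times the lowest, and the 6 steps between them were all of nearly one length, from 2901 to 2937 bp. Another 6 peaks lay in the same array of 15 genes but outside the chain, with normalized tag counts of 19.6 to 25. A gap of 5839 bp, across Ifnz, parted the chain from 3 of these, which were 2932 and 2945 bp apart.

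**Figure D1:**
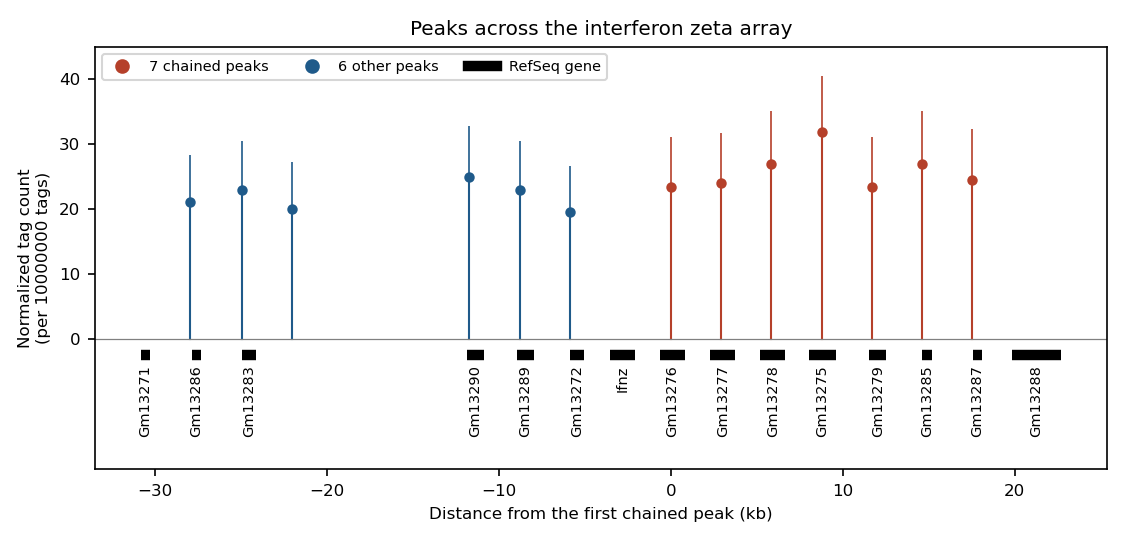
Peaks across the Ifnz array, by distance from the first chained peak (kb) and normalized tag count, with exact 95% Poisson intervals as thin lines and RefSeq genes as black bars. The 7 chained peaks (red) stand between 23.5 and 31.9, and the 6 others (blue) between 19.6 and 25.

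Several copies in this array share their DNA. The promoter windows of Gm13285, Gm13287 and Gm13272 were the same in all 300 bases, and that of Gm13283 in 297. Those of Ifnz, Gm13276 and Gm13277 were also identical to each other, and those of Gm13278 and Gm13288 matched them in 299. A stretch that 7 of the genes with a peak share placed the midpoint at nearly one position: it lay 226 to 257 bases after the start of that stretch at Gm13283, Gm13290, Gm13289, Gm13272, Gm13279, Gm13285 and Gm13287. From that start the unbroken identical bases numbered 62 at Gm13283, 140 at Gm13290, Gm13289 and Gm13279, and 300 at the others. The runs of 140 and 300 ended where the promoter window ended, so identity past that point was not read. At Gm13290, Gm13289 and Gm13279 the midpoint lay past the end of the window. At Gm13283 it lay past the first mismatch but inside the window, which matched that of Gm13285 in 297 of 300 bases. How reads that fit several copies were counted is not given in the sources used here. The heights of the peaks in this array are therefore uncertain one by one, and whether the summed count of the chain is split or repeated over copies was not tested.

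The other 29 chains spanned less. Over all 30 the median span, from the start of the first peak to the end of the last, was 4869 bp, and the shortest was 2230 bp at Rmdn2. The 95 steps between neighbouring midpoints had a median of 1566 bp and ran from 418 to 2966 bp. Of these, 29 were under 1 kb and 21 over 2.5 kb, next to the limit of 3 kb. Across all autosomal peaks the median step was 20550 bp, and 8.3% of steps were 3 kb or less. Just outside the rule lay 365 chains of 3, of which 10 had a further peak 3 to 3.5 kb away. The nearest of these missed by little: chr4:53439151-53441528 had its next peak at 3032 bp and a summed count of 29.9, and chr9:115272105-115275051 had it at 3033 bp and a sum of 34.3. The closest outside neighbour of a chain was 3289 bp away, beside Rmdn2.

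**Figure D2:**
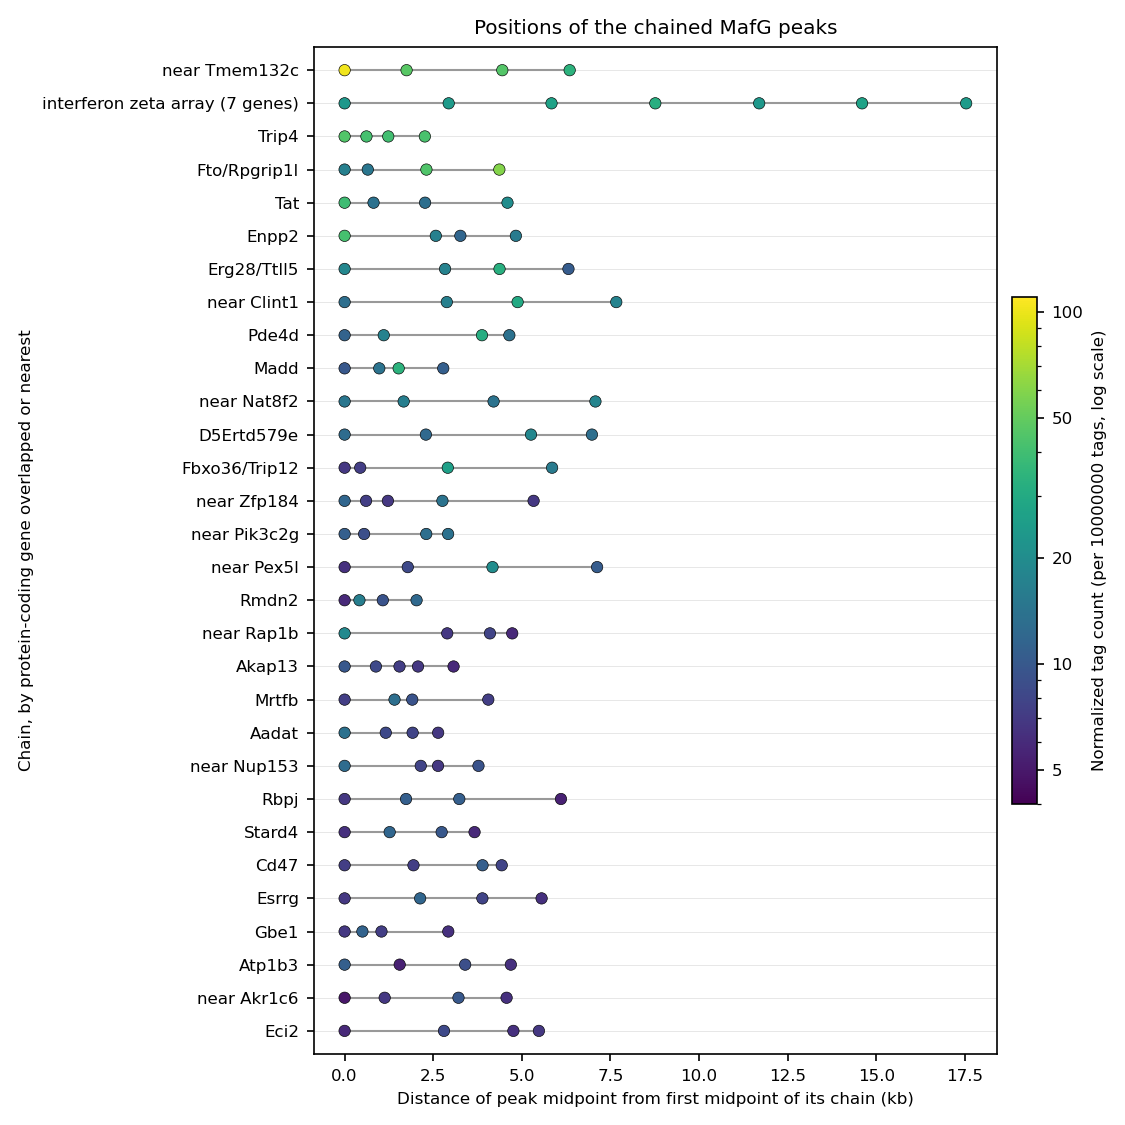
Peak midpoints of each chain by distance from its first midpoint (kb), with the normalized tag count as colour on a log scale and chains in order of summed count. The Ifnz array is the longest chain with evenly spaced peaks, and no other chain spans more than 7865 bp.

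Summed over a chain, the normalized tag count had a median of 45.8, with quartiles of 34.6 and 76.1, and ran from 27.4 to 229. Only 4 chains exceeded 100 and 17 stayed under 50. Even a whole chain was often no taller than one strong peak: 6844 single peaks (12.2%) reached the median chain sum on their own. Within a chain the tallest peak was at the median 2 times the lowest, from 1.11 times at Trip4 to 4.07 times at Fto and Rpgrip1l. In 12 chains the ratio was under 2. The authors' limit of 4-fold over the surrounding 10 kb also bears on this ratio, since close neighbours of a tall peak must pass it. The first or last peak was the tallest in 12 of the 30.

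The highest sum belonged to a chain far from any protein-coding gene, at chr5:126562642-126569192. Its 4 peaks had normalized tag counts of 103, 46.6, 45.1 and 33.8, a sum of 229 (exact 95% Poisson interval 209 to 251). The first of these was the tallest of all 125 chained peaks. The control held 12, 4, 1 and 3 tags, and scaled to equal totals the chain was 19.7-fold above it (95% interval 12.6 to 32.5). The nearest protein-coding gene, Tmem132c, lay 672634 bp away and the next, Gm4868, 712681 bp.

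Genes of transcription and RNA modification held the next 2 highest sums after the Ifnz array (181, interval 163 to 201). Inside Trip4, a gene of a transcription coactivator, 4 peaks within 2464 bp had normalized tag counts of 44.6, 41.2, 40.2 and 42.6, the most even heights of any chain (chr9:65867822-65870286, sum 169, interval 151 to 187). The control held 4, 6, 1 and 2 tags there. At chr8:91313271-91317837 the counts were 16.7, 14.7, 44.1 and 59.8, with 0, 1, 5 and 0 control tags (sum 135, interval 120 to 152). All 4 midpoints lay inside Fto, which encodes an RNA demethylase that acts on N6-methyladenosine. The first peak was also 154 bases before the listed start of Fto and 149 before that of Rpgrip1l, a gene of the ciliary transition zone that runs the other way. This first peak was among the lower ones, and the tallest lay last, deeper in Fto.

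Chains in other transcription factor genes were low. Rbpj, the DNA-binding factor of the Notch pathway, held counts of 6.86, 10.8, 10.8 and 5.39 over 6304 bp (chr5:53605574-53611878), the nearest of them 15188 bp inside the listed start. Esrrg, an orphan nuclear receptor, held 6.86, 11.8, 7.84 and 6.37 (chr1:188114505-188120263), 116778 bp or more from the start. Mrtfb, a coactivator of serum response factor, held 7.35, 13.2, 9.31 and 7.35 (chr16:13357325-13361579), and the tallest was 412 bp from the start. Their sums were 33.9, 32.9 and 37.2, all below the median of the 30.

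Genes of metabolism, grouped here after their values were seen, held both high and low sums. Tat, the first enzyme of tyrosine breakdown and a classic hormone-responsive liver gene, stood highest with counts of 39.2, 13.7, 13.2 and 20.1 and 2, 1, 2 and 1 control tags (chr8:109981859-109986655, sum 86.2, interval 74 to 100). All 4 lay upstream of the listed start, the nearest by 3881 bp, and the tallest was the farthest from it. A pseudogene, Gm45795, also lay in that stretch. Enpp2, which encodes autotaxin, the enzyme that makes lysophosphatidic acid, held 41.2, 16.7, 11.8 and 15.7 (chr15:54863303-54868335, sum 85.4, interval 73.1 to 98.9) with 2, 1, 1 and 0 control tags. In both chains 1 peak stood well above the other 3.

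A chain at chr12:85824449-85830965 ran across the ends of Erg28, a scaffold of sterol synthesis, and Ttll5, a tubulin glutamylase. It held 18.6, 17.2, 32.3 and 10.3, with the first peak 344 bp from the listed start of Erg28. Across the start of Aadat, an aminotransferase of lysine and kynurenine breakdown, the counts were 13.7, 8.33, 7.84 and 6.86 (chr8:60503809-60506648). The third was 296 bases before the start, and only the fourth had its midpoint inside the gene. Across the start of Gbe1, the glycogen branching enzyme, lay 6.86, 11.3, 7.35 and 6.37 (chr16:70313360-70316485), with the tallest 13 bases from the start, over the sequence given above. Eci2, an enoyl-CoA isomerase of fatty acid oxidation, held the lowest sum of all, 27.4 (interval 20.7 to 35.6), from 5.88, 8.33, 6.37 and 6.86. That chain, at chr13:35013343-35019025, lay within the full extent of the gene, 19299 bp or more upstream of the listed start.

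Signalling and membrane genes made a further group. Pde4d, a phosphodiesterase that degrades cyclic AMP, held counts of 11.3, 17.2, 31.4 and 13.7 (chr13:109577570-109582418, sum 73.6, interval 62.2 to 86.3) and no control tag at any peak. Its signal was at least 33.9-fold higher than the control, the lower 95% limit of the ratio with no control tag counted. Set against a floor of 3 control tags per chain, the ratio was 42.2. Madd, an exchange factor for Rab3, held 9.8, 14.2, 33.8 and 10.8 within 2983 bp (chr2:91151390-91154373, sum 68.6), with 2 control tags in all. The third peak was the tallest in both, and the peaks around it had fewer than 20.

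Lower chains of this kind lay in Akap13, an anchor protein of protein kinase A, and in Cd47, the ligand of SIRP alpha. Another lay across the start of Atp1b3, a subunit of the sodium pump. Akap13 had 5 peaks within 3274 bp, with counts of 9.8, 8.33, 7.35, 6.86 and 5.88 and 1 control tag at each (chr7:75514754-75518028). Cd47 had 7.35, 7.35, 10.8 and 7.84 (chr16:49854208-49858841), of which the nearest to the start was 590 bp from it. Atp1b3 had 10.8, 5.39, 8.82 and 6.37 (chr9:96362019-96366909), and the peak 42 bases from its start was the lowest. Near Rap1b, a small GTPase, 19.1, 6.86, 7.84 and 5.88 stood 9773 bp from the gene (chr10:117855747-117860676). Near Pik3c2g, a class II phosphoinositide kinase, 10.8, 8.82, 13.2 and 13.7 stood 23934 bp away (chr6:139587018-139590138).

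Genes of the cytoskeleton, protein turnover and the nucleus held a few. Rmdn2, a regulator of microtubule dynamics, had the shortest chain, with counts of 5.88, 16.2, 9.31 and 12.3 and no control tag (chr17:79598250-79600480). Its sum of 43.7 was at least 19.9-fold higher than the control, the lower 95% limit of the ratio with no control tag counted. Set against the same floor of 3 control tags, the ratio was 25. At chr1:84848647-84854701 the counts were 6.86, 7.35, 26 and 15.7, low in the first 2 peaks and higher in the last 2. All 4 midpoints lay in Fbxo36, an F-box gene, and the chain also overlapped Trip12, a ubiquitin ligase. Near Nup153, a protein of the nuclear pore, 12.7, 7.84, 6.86 and 9.31 stood 5990 bp from the gene, over the long noncoding RNA gene Gm46412 (chr13:46733839-46737816).

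A chain of 5 peaks lay over transfer RNA genes, 3761 bp from Zfp184, a zinc finger gene. Its counts were 11.8, 7.35, 6.86, 14.2 and 6.86 over 5532 bp, with 4 control tags in all (chr13:21935760-21941292). Taller peaks stood in most of the remaining chains. Across the start of D5Ertd579e lay 12.7, 12.3, 18.6 and 13.2 (chr5:36691395-36698573), the tallest 733 bp before that start. Near Nat8f2 lay 14.7, 16.2, 14.2 and 18.1 (chr6:85849326-85856603), near Clint1, 61022 bp away, 13.2, 16.7, 29.4 and 17.6 (chr11:45783057-45790922), and near Pex5l, 256890 bp away, 6.37, 8.33, 20.1 and 10.3 (chr3:33400192-33407516).

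A chain with counts of 4.9, 6.86, 9.8 and 6.37 (chr13:4356458-4361228) lay 73083 bp from Akr1c6, a member of the aldo-keto reductases and, among the bile acid synthesis genes, the nearest to any chain. Stard4, a carrier of cholesterol between membranes, held 6.37, 11.8, 9.8 and 5.88, with 1 control tag in all and a sum of 33.9. Both sums, 27.9 and 33.9, lay under the lower quartile of 34.6.

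**Figure D3:**
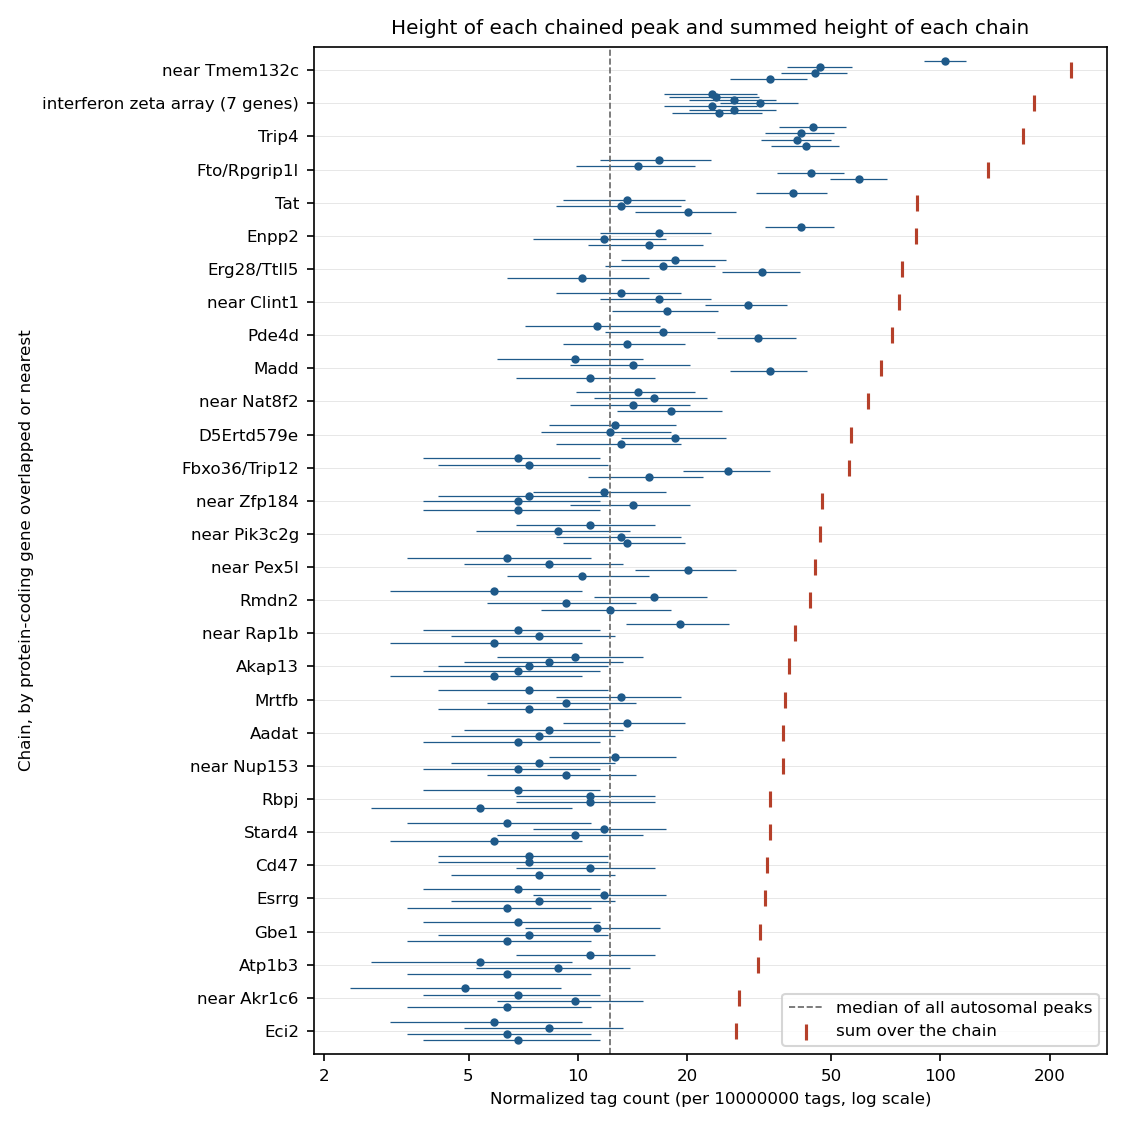
Normalized tag count of every chained peak (points, with exact 95% Poisson intervals as lines) and the sum over each chain (red ticks), on a log scale, by gene overlapped or nearest. The dashed line is the median of all autosomal peaks, 12.3, and every peak of the first 5 chains, down to Tat, lies above it.

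As a class the chained peaks were not tall. The 125 peaks had a median normalized tag count of 11.3 (quartiles 7.35 and 17.2), against 12.3 for single peaks (7.84 and 24.5), 11.8 for pairs and 12.3 for chains of 3. Without the Ifnz array the median was 10.8. Few of them were tall: 2 of 125 (1.6%, exact 95% interval 0.194 to 5.66) reached 50, against 10% of all autosomal peaks. The share was 10.9% for single peaks, 5.48% for pairs and 4.11% for chains of 3. The shares of pairs and of chains of 3 lie inside that interval, so few tall peaks was not particular to the longer chains. None of the 125 reached 200, as 730 autosomal peaks did. All of these intervals treat peaks as independent, and peaks of 1 chain share their surroundings. Height is also not fully independent of the choice. Each listed peak had to be 4-fold above its surrounding 10 kb, and a tall peak raises the surroundings of its close neighbours. How far this limit bears on the lack of tall peaks was not tested.

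Against the control the chained peaks were like the rest in the share with few control tags. The control was at 0 in 55 (44%) against 43.9% of all autosomal peaks, and at 3 or more tags in 14 (11.2%) against 10.8%. A fold over control of 20 or more in the authors' deposited table was held by 72 of 125 (57.6%, interval 48.4 to 66.4), against 64.2%, which lies inside the interval. A lower bound of the counted ratio above 10 was reached by 6 (4.8%, interval 1.78 to 10.2) against 15.4%. This measure depends on the number of tags as well as on the fold. It was reached by 16.3% of single peaks, 10.7% of pairs and 9.04% of chains of 3, the last share inside the interval. Taken over whole chains, where tags add up, the lower bound exceeded 10 in 16 of 30, and the median ratio was 28.2. Each listed peak had to be 10-fold above the control, so a chain ratio above 10 largely follows from that limit. No such ratio is given here for other chains.

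Over their surroundings the chained peaks stood out less than single peaks. The authors' deposited table gives a median fold over the surrounding 10 kb of 6.29 for chained peaks, 17.9 for single peaks, 9.09 for pairs and 7.04 for chains of 3. Below 6 were 57 of 125 (45.6%, interval 36.7 to 54.7) against 11.1% of all autosomal peaks. These surroundings hold the other peaks of the chain, so the measure is not independent of the choice. Trip4, with 4 peaks of like height within 2464 bp, had folds of only 4.54 to 5.11, close to the limit of 4 that the authors set.

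**Figure D4:**
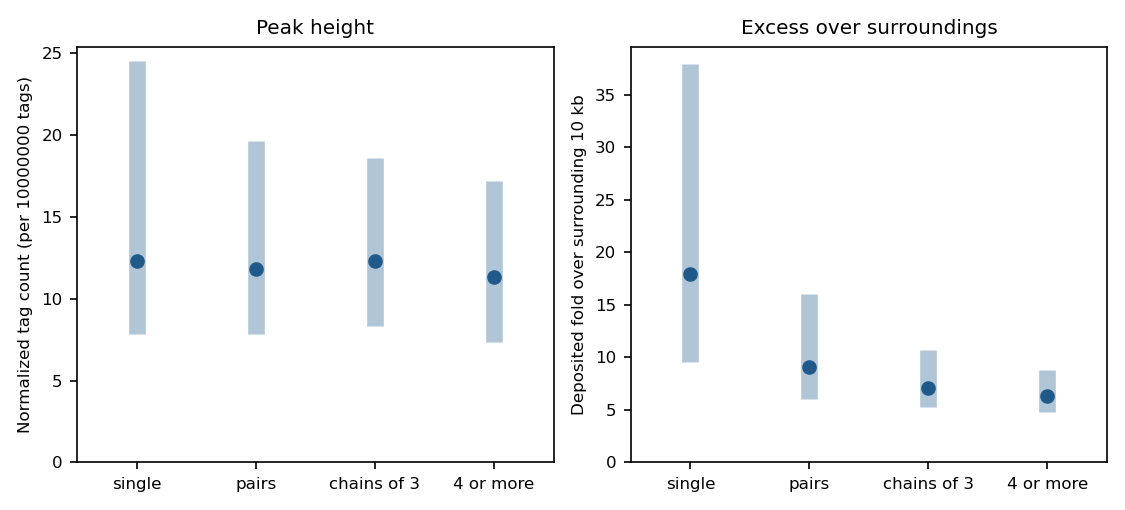
Normalized tag count (left) and the authors' deposited fold over the surrounding 10 kb (right) for single peaks, pairs, chains of 3 and chains of 4 or more, with medians as points and quartiles as bars. Heights are alike at the median, from 11.3 to 12.3, while the fold over surroundings runs from 17.9 to 6.29.

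Most chains lay in or at genes. Of the 30, 21 (70%, exact 95% interval 50.6 to 85.3) overlapped a protein-coding gene, and in 13 all midpoints lay in 1 such gene. The other 9 lay outside, 4 of them within 10 kb of one and 4 beyond 50 kb, and 6 chains overlapped no gene of any type. A stretch of several kb meets a gene more easily than a peak of 200 bp, and no background for such stretches was taken. With at least 3 peaks required, 66.1% of chains overlapped a protein-coding gene, a share inside the interval. By peak, 73 of 125 (58.4%, interval 49.2 to 67.1) had the midpoint inside a protein-coding gene, against 48.7% of all autosomal peaks, and without the array the share was 57.6%. Pairs (52.7%) and chains of 3 (55.9%) lay between single peaks (47.9%) and the longer chains, and the interval of the longer chains includes both.

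A larger share of the chained peaks lay near start sites, a difference read from 1 list and not tested. On the 18 autosomes with listed starts, 21 of 121 chained peaks (17.4%, interval 11.1 to 25.3) lay within 1 kb of one, against 5.75% of all autosomal peaks there. The share was 4.97% for single peaks, 9.62% for pairs and 11.4% for chains of 3. The Ifnz array, with its tightly set genes, gave 7 of the 21, and without it 14 of 114 (12.3%) remained. The 21 peaks came from only 9 of 29 chains, those at the array, Fto and Rpgrip1l, Erg28, D5Ertd579e, Mrtfb, Aadat, Cd47, Gbe1 and Atp1b3. In the promoter window itself lay part of 6 of 121 (4.96%, interval 1.84 to 10.5), against 3.72%, a share inside that interval. The listed starts leave out some genes on these autosomes. For the Enpp2 chain the nearest listed start was that of Slc22a22, 2396926 bp away, and for the Pde4d chain that of Rab3c, 697888 bp away. Peaks near an unlisted start were not counted in any of these shares.

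**Figure D5:**
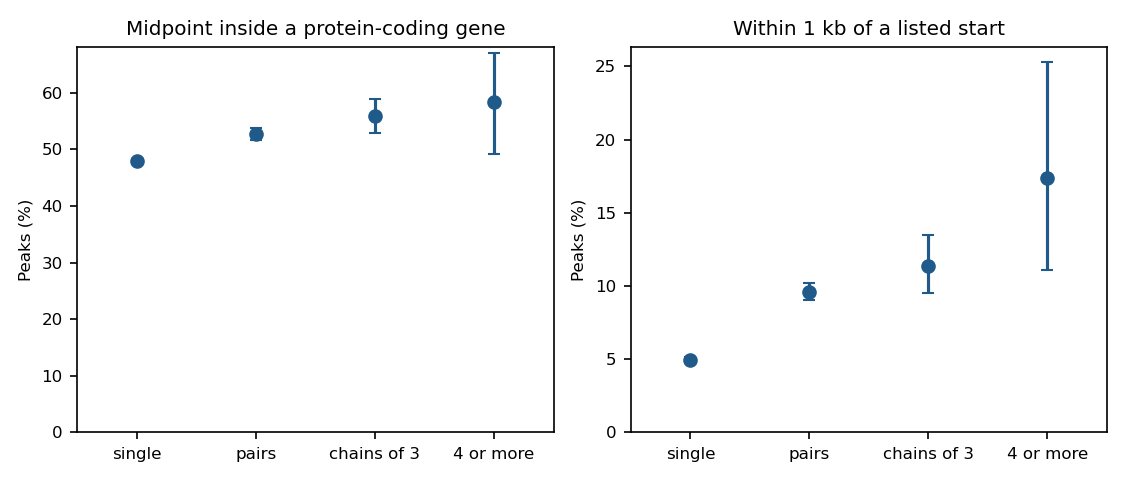
Share of peaks (%) with the midpoint inside a protein-coding gene (left) and within 1 kb of a listed start (right), by size of chain, with exact 95% binomial intervals over peaks. For starts the share runs from 4.97% of single peaks to 17.4% of peaks in chains of 4 or more.

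No gene held more than 1 chain, and few genes had one at all. The chains overlapped 30 of 20665 autosomal protein-coding genes (0.145%), lay within 10 kb of 38 (0.184%) and within 50 kb of 71 (0.344%). Of 335 genes in 19 lists, on liver functions, on MafG and its partners, and on neuronal, muscle and nonparenchymal genes, 1 (0.299%, interval 0.00756 to 1.65) had a chain within 10 kb, Tat of the gluconeogenesis and glycogen list. No gene of the lists for bile acid synthesis (20 genes), bile acid transport (16) and bile acid regulators (13) had one, nor did those for small MAF, CNC and BACH factors with Keap1 (10) and the antioxidant genes of NRF2 (39). Set beside the 0.184% of all autosomal genes, which lies inside the interval, that count is near the background and is no result about the lists. By chromosome, 13 held 5 of the 30 chains (16.7%) with 5.01% of the autosomal peaks, and 14 and 19 held none. These counts rest on few chains, and the differences between chromosomes were not tested.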

How the data were processed

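ChIP-seq libraries of mouse liver (2 BLRP-MafG, 2 BLRP control) were represented by 1 deposited peak list. The submitters' processing notes name Bowtie2, HOMER and build mm10 but, in the sources used here, no version. According to the authors' file header, peaks of 200 bp at least 400 bp apart were called on 1 collection of 20406492 BLRP-MafG tags against 1 control collection, with a 10-fold excess over control (Poisson p-value 1e-06) and a 4-fold excess over the surrounding 10000 bp (p-value 0.0001), which kept 68763 of 142591 putative peaks. Which libraries each collection joined is not given in the sources used here.

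Of the deposited values, the BLRP-MafG signal was scaled by the authors to 10000000 tags (the normalized tag count), and the control signal is unscaled. The deposited fold values are linear ratios, in which 0 control tags count as 0.5. The deposited score and p-value columns were not used for any result.

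Midpoints were chained with Python 3.11.15, numpy 2.4.6 and pandas 2.3.3, with the code tested on simulated positions. Normalized tag counts were multiplied back to whole tags (at most 0.102 from one) for exact 95% Poisson, binomial and conditional binomial intervals (scipy 1.17.1). The last used the control total implied by the deposited folds, 1.72e+07 tags. Intervals and the floor of 3 control tags cover counting error only, and tags without molecular identifiers may be repeated copies. Genes came from the RefSeq gene table and promoter windows of GRCm38.p6, the assembly of mm10. The windows used cover 18 autosomes but not every gene on them, and exons and introns were not separated. Figures were drawn with matplotlib 3.10.9.

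The rule for named chains took the 10 with most peaks, the 10 with the highest sum, the 3 longest, the 3 shortest and those within 10 kb of a list gene. All other chains were then given too, grouped by textbook role after their values were seen. The chains and lists were chosen with earlier results of these data known. Alternatives were a step of 2 or 4 kb, at least 3 or 5 peaks, a deposited fold of at least 20, steps between facing edges, X and Y added, and other gene windows.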

Additional observations from a re-analysis of the deposited data

How the results depend on the processing

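Of 67 values recomputed under alternatives, 38 stayed within the range set for the main value and 29 moved. The number of chains, 30, and of their peaks, 125 (0.187%), depended on the limits. A step of 2 kb gave 11 chains with 45 peaks (0.0673%). All 11 lay within the original ones, which follows from the shorter step. A step of 4 kb gave 76 with 319 (0.477%). Requiring 3 peaks gave 395 chains with 1220 peaks (1.82%), and requiring 5 gave 3 with 17 (0.0254%). With only peaks of a deposited fold of at least 20, 3 chains with 12 peaks (0.028%) were left, those at Enpp2, Pde4d and Rmdn2. Their median normalized tag count was 14.7 and their median sum 73.6, and 100% overlapped a protein-coding gene, while the 100% with such a fold follows from the construction. At 2 kb the median peak fell to 9.31. The median span was 3120 bp at 2 kb, 7040 bp at 4 kb and 3498 bp with 3 peaks. With 5 peaks, 29.4% of peaks had a fold of at least 20. Chains with every midpoint in the same gene were 43.3%. List genes with a chain within 10 kb were 2.39% with 3 peaks and 0% at 2 kb, at 5 peaks and at a fold of at least 20. Facing edges (33 chains) and X and Y (30) kept all values within range. No paired analysis was possible because there was 1 list with no value per library, and leaving out a library was likewise not possible.

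The median chained peak rested on 23 BLRP-MafG tags, so single heights are known roughly, and no spread between animals can be given. MafG was overexpressed, and occupancy at its native level was not measured. The list holds only peaks past the authors' limits, and weaker peaks between or beside those of a chain were not analysed here.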
